A study of Mus musculus with 4 samples.

Results

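The genes described here encode the components of perineuronal nets, 7 of the 28000 features counted in each library, and were chosen by name. They are the lecticans Acan (aggrecan), Bcan (brevican), Ncan (neurocan) and Vcan (versican), the link proteins Hapln1 and Hapln4, and the cross-linking glycoprotein Tnr (tenascin-R). Perineuronal nets are lattices of extracellular matrix that wrap the soma and proximal dendrites of certain neurons, in the cortex above all the parvalbumin-positive basket cells. Hyaluronan forms the backbone of the net, lecticans attach to it through link proteins, and tenascin-R ties lecticans together at their far ends. Part of this matrix is made by the neuron it surrounds and part by glia, so a transcript count in a neuron describes its own share only.

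All cells came from somatosensory cortex of mice on a Crl:CD1(ICR) background that carried SST-IRES-Cre (Cre expressed from the Sst locus), the Cre-dependent LSL-tdTomato reporter and the X94-GFP transgene, in which GFP is driven by a Gad1 promoter and is visible in a subset of somatostatin (SST) interneurons. The tdTomato signal marks any cell with a history of Sst expression, and GFP expression depends on where the X94 transgene landed. GFP+/tdTomato+ cells from mice aged 97 days (P97) made up 1 library, and tdTomato+ cells sorted from the same dissociation irrespective of GFP made up another. Another 2 tdTomato+ libraries were made at 45 days of age (P45), each from its own batch of animals. Each library pooled cells of several animals, and no cell could be assigned to an animal.

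SST cells were barcodes with at least 2000 unique molecular identifiers (UMIs, counted molecules) and at least 3 Sst UMIs. They numbered 2098 of 2611 barcodes, with 211 GFP+/tdTomato+ cells and 573 tdTomato+ cells at P97, and 668 and 646 tdTomato+ cells at P45. The median SST cell held 15222 UMIs in the GFP+/tdTomato+ library and between 5158 and 7583 in the tdTomato+ libraries, and 5 barcodes occurred in a pair of libraries. Levels are given as CPM, UMIs scaled to a total of 1e6 over the SST cells, or the group of cells, summed in a library. Sst and Gad1 were abundant in every library, whereas all microglial markers together stayed below 1 CPM. Oligodendrocyte markers summed to 55.1 CPM in the GFP+/tdTomato+ library and to between 1040 and 1055 CPM in the tdTomato+ libraries. GFP UMIs did not separate the sorts, at 513 CPM in the GFP+/tdTomato+ library and between 332 and 343 CPM in the tdTomato+ libraries.

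The 7 genes lie on 5 chromosomes (GRCm38, GENCODE vM21). Acan spans 79053483-79115099 on chromosome 7 (plus strand) and ends 2 bases from the end of Hapln3, another link protein gene on the opposite strand. Hapln4 (chromosome 8, 70083457-70090862, plus) and Ncan (chromosome 8, 70093085-70120873, minus) point towards each other with 2222 bases between them. Hapln1 (chromosome 13, 89539796-89611652, plus) and Vcan (chromosome 13, 89655312-89742509, minus) likewise face each other across 43659 bases. Bcan occupies 87987531-88000230 on chromosome 3 (minus), and Tnr 159523769-159931729 on chromosome 1 (plus). No gene body of one member overlaps that of another. Libraries of this kind read the ends of transcripts, and CPM values count molecules, not molecules per length.

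Bcan and Tnr were both higher in Pvalb-positive SST cells and otherwise differed in their pattern, and the 250 bases before their RefSeq start sites (GRCm38.p6) are shown for reference, each on the strand of its gene and free of annotated exons. Capitals mark GGGCGG (GC box) or CCAAT on either strand. Neither window held TATAAA or TGACGTCA.
Bcan, chr3:88000357-88000606, minus strand: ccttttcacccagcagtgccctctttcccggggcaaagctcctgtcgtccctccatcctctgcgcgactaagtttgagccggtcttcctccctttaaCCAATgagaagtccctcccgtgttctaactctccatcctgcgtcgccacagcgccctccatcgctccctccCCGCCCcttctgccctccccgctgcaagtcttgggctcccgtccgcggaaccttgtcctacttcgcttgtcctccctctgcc
Tnr, chr1:159523519-159523768, plus strand: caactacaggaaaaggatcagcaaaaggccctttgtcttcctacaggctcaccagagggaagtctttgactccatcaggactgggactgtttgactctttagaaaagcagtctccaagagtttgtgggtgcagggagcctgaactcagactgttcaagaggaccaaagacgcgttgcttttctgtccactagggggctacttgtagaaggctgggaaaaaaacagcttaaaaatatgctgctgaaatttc
The Bcan window held 1 GC box, 82 bases before the start, and 1 CCAAT, 153 bases before it, with 62% G and C. None of the 4 motifs occurred in the Tnr window, whose G and C content was 46.8%. Among 32851 promoter windows of the same length, 32.7% held GGGCGG, 33.8% CCAAT, 12.4% TATAAA and 1.55% TGACGTCA.

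Among all SST cells, Hapln4 was the most abundant member and Acan and Vcan were nearly undetected. Hapln4, a brain link protein, stood at 239 CPM in the GFP+/tdTomato+ library, 149 CPM in P97 tdTomato+ cells and 66.5 and 78.1 CPM in P45 cells. It was thus highest in GFP+/tdTomato+ cells, and both P97 libraries lay above both P45 libraries. Tnr was even across libraries, at 61.5 CPM in GFP+/tdTomato+ cells, 75.7 CPM in P97 tdTomato+ cells and 71.0 and 67.2 CPM in P45 cells. Bcan, a brain-specific lectican, was counted at 65.4 CPM in GFP+/tdTomato+ cells, 66.0 CPM in P97 tdTomato+ cells and 41.4 and 51.7 CPM in P45 cells. Ncan, the lectican most abundant in developing brain, was counted at 36.8 CPM in GFP+/tdTomato+ cells, 54.6 CPM in P97 tdTomato+ cells and 56.7 and 43.8 CPM in P45 cells. Both were therefore of the same order as Tnr, and the GFP+/tdTomato+ library was the lowest of the 4 for Ncan. Hapln1, the link protein shared with cartilage, had 26.5 CPM in GFP+/tdTomato+ cells, 9.54 CPM in P97 tdTomato+ cells and 14.3 and 9.73 CPM in P45 cells.

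**Figure D1:**
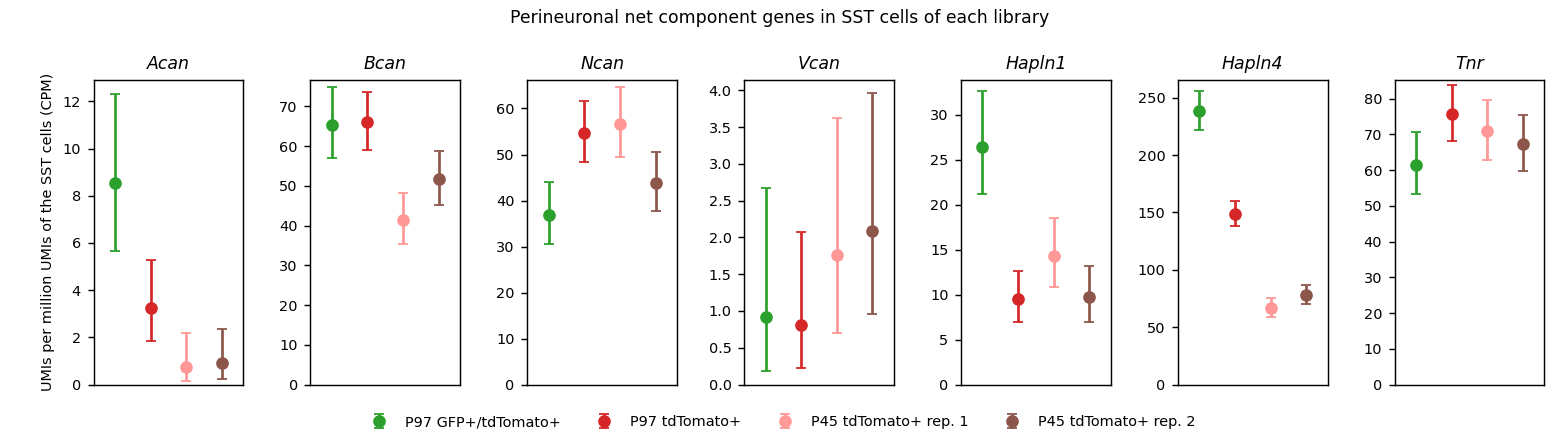
CPM of each member summed over the SST cells of a library, 1 point per library, with exact Poisson 95% intervals that cover counting error only; the vertical scale differs between panels. Hapln4 is highest in GFP+/tdTomato+ cells (239 CPM), and Acan and Vcan rest on few UMIs in every library.

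Acan, the lectican by which nets are commonly stained, had 28 UMIs in 211 GFP+/tdTomato+ cells, 16 UMIs in 573 P97 tdTomato+ cells, and 3 and 4 UMIs in the 668 and 646 P45 cells. These counts amount to 8.52 CPM in GFP+/tdTomato+ cells, 3.25 CPM in P97 tdTomato+ cells and 0.753 and 0.927 CPM in P45 cells. Of the 28 Acan UMIs in the GFP+/tdTomato+ library, 26 lay in Pvalb-positive cells. So did 14 of 16 Acan UMIs among tdTomato+ cells at P97, and all 3 and all 4 at P45. Scaled to depth, Acan stood at 9.45 CPM in Pvalb+ and 3.75 CPM in Pvalb- cells of the GFP+/tdTomato+ library, and at 4.99 and 0.944 CPM in those of the P97 tdTomato+ library. Vcan, a lectican also made by oligodendrocyte precursors, had 3 UMIs in the GFP+/tdTomato+ library, 4 among tdTomato+ cells at P97 and 7 and 9 at P45. Vcan did not reach the count filter in any comparison and Acan reached it only between ages, so neither was tested between marker groups in the main fits. A setting without that filter was also run, and its values for Acan and Vcan are not given here.

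Each marker comparison set SST cells with at least 1 UMI of the marker against SST cells with none, with the 3 tdTomato+ libraries as blocks, by edgeR's quasi-likelihood test with Benjamini-Hochberg adjustment over all genes. Hpse marks the non-Martinotti SST cells in the study, and Calb2 is a common marker of Martinotti cells. Pvalb, Crh, Th, Nos1 and Myh13 were taken as further markers within SST cells. In each, 5 of the 7 members passed the filter on low counts. Of these, 3 passed the test between Hpse+ and Hpse- cells (2 higher, 1 lower), where 11.6% of all genes tested did, and 4 between Pvalb+ and Pvalb- cells (all higher), where 14.8% did. Between Calb2+ and Calb2- cells 2 passed, both lower, against 5.33% of all genes. Another 2 were lower in Nos1+ than in Nos1- cells (5.05% of all genes called) and 2 were lower in Myh13+ than in Myh13- cells (5.74%). No member passed between Crh+ and Crh- cells, where 5.11% of genes did, although Bcan had an unadjusted p of 0.0168, and DESeq2 called none either. Th+ cells occurred in the P45 libraries only, in 23 and 13 SST cells, and no member passed there (3.43% of all genes called), with none at an unadjusted p under 0.05 and none called by DESeq2. DESeq2 called Hapln1 and Hapln4 between Hpse groups and between Pvalb groups, Hapln4 and Tnr between Myh13 groups, and no member between Calb2 or Nos1 groups. Among cells positive for exactly 1 marker, too, no member passed for Calb2 or Nos1, and with cells thinned to 2000 UMIs the calls were Bcan and Hapln4 between Pvalb groups. With no library block, Hapln1 passed between Hpse groups, Hapln4 between Pvalb groups and Tnr between Myh13 groups. The share of all genes called under these alternatives, DESeq2 among them, is not set beside their calls, so they do not show a loss particular to the members. In the main edgeR fits, the p-values set each difference against how much it varied between libraries, 3 in all and 2 for Th. The estimate of that spread borrowed from all genes tested.

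Hapln4 rose in Pvalb+ cells in every library. It stood at 205 CPM in Pvalb+ and 74.6 CPM in Pvalb- cells at P97, 120 and 40.1 CPM in P45 replicate 1, and 133 and 46.7 CPM in P45 replicate 2. All 3 Pvalb+ values lay above all 3 Pvalb- values, with a log2 fold change of 1.49 ± 0.10 (SE; adjusted p = 1.72e-19). The GFP+/tdTomato+ library, which was not in this fit, had 262 CPM in Pvalb+ and 116 CPM in Pvalb- cells. Pvalb+ cells were deeper than Pvalb- cells, with medians of 10554 against 6354 UMIs at P97, and with 5000 or more UMIs per cell the log2 fold change was 1.45. The list of parvalbumin basket markers (Parvalbumin basket without Pvalb, which is Tac1, Syt2, Kcnc1 and Cox6a2 together) also moved with Pvalb, between 829 and 919 CPM in Pvalb+ cells and between 371 and 474 CPM in Pvalb- cells, and their part in this result was not tested.

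In Hpse+ cells Hapln4 was also higher, at 198 CPM against 137 CPM in Hpse- cells at P97, 87.0 against 63.1 CPM in P45 replicate 1 and 113 against 72.2 CPM in P45 replicate 2. Its log2 fold change was 0.59 ± 0.12 (SE; adjusted p = 0.000240), and the GFP+/tdTomato+ library had 236 CPM in Hpse+ and 242 CPM in Hpse- cells. The call was lost among cells positive for exactly 1 marker (0.64), with cells thinned to 2000 UMIs (1.12) and with the GFP+/tdTomato+ library as a further block (0.37). Myh13+ cells had the lowest Hapln4 levels of any marker group. They held 61.0 CPM at P97 and 14.1 and 10.7 CPM at P45, where Myh13- cells held 154 CPM at P97 and 70.5 and 82.8 CPM at P45. Every Myh13+ value thus fell short of every Myh13- value, with a log2 fold change of -1.90 ± 0.27 (SE; adjusted p = 6.85e-06). The P45 values rest on 4 and 3 UMIs, and with cells thinned to 2000 UMIs the log2 fold change was -1.84 and did not pass. Calb2+ cells held less Hapln4 too, at 69.9 CPM against 158 CPM in Calb2- cells at P97, 47.3 against 72.0 CPM in P45 replicate 1 and 69.3 against 79.8 CPM in P45 replicate 2 (log2 fold change -0.62 ± 0.16, SE; adjusted p = 0.0272). That call was lost without the P97 library (-0.34) or without P45 replicate 1 (-0.64), and with cells thinned to 2000 UMIs the log2 fold change was 0.12. Nos1, Crh and Th groups differed by at most 0.17 on the log2 scale in either direction, and none passed.

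Hapln1 was higher in Pvalb+ and in Hpse+ cells and lower in Nos1+ cells. In Pvalb+ cells it reached 15.7 CPM at P97 and 28.1 and 12.7 CPM at P45, and in Pvalb- cells 1.42 CPM at P97 and 7.49 and 8.02 CPM at P45 (log2 fold change 1.71 ± 0.29, SE; adjusted p = 7.79e-06). The groups did not overlap, and the log2 difference was 3.47 at P97, 1.91 in P45 replicate 1 and 0.67 in P45 replicate 2. Hapln1 was not among the members called for Pvalb with cells thinned to 2000 UMIs or with no library block. At P97, 44 of 47 Hapln1 UMIs came from Pvalb+ cells, which held 2806048 of the 4925224 UMIs of the SST cells. Hpse+ cells held 31.2 CPM at P97 and 23.1 and 21.1 CPM at P45, while Hpse- cells held 4.51 CPM at P97 and 12.9 and 7.84 CPM at P45. This difference had a log2 fold change of 1.74 ± 0.32 (SE; adjusted p = 3.73e-05) with no overlap. In the GFP+/tdTomato+ library, which was not in this fit, Hapln1 was at 24.6 CPM in Hpse+ and 29.7 CPM in Hpse- cells. The log2 fold change was 1.14 without the P97 library, 1.86 with cells thinned to 2000 UMIs and 1.05 with the GFP+/tdTomato+ library as a further block, and passed in none of these. Hpse+ cells were deeper than Hpse- cells, with medians of 11818 against 7192 UMIs at P97, 8805 against 4902 in P45 replicate 1 and 8229 against 5947 in P45 replicate 2. In Nos1+ cells, Hapln1 fell to 3.26 CPM at P97 and 5.54 and 6.21 CPM at P45, against 11.0 CPM at P97 and 18.4 and 10.5 CPM at P45 in Nos1- cells (log2 fold change -1.40 ± 0.36, SE; adjusted p = 0.0161). That call also ended without the P97 library (-1.29) or without P45 replicate 1 (-1.17). Th+ cells had no Hapln1 UMI in either P45 library, where Th- cells had 57 and 42, and at their depth a count of 0 allows up to 24.9 and 25.7 CPM.

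Bcan was higher in Pvalb+ cells and lower in Calb2+ and Nos1+ cells. It had 73.4 CPM in Pvalb+ and 56.2 CPM in Pvalb- cells at P97, 57.8 and 33.3 CPM in P45 replicate 1, and 61.7 and 45.9 CPM in P45 replicate 2. Within each library the Pvalb+ value was higher, by a log2 fold change of 0.49 ± 0.12 (SE; adjusted p = 0.00194). With cells thinned to 2000 UMIs it was 0.88 and passed, whereas the call was lost with DESeq2 (0.51) and with no library block (0.52). Calb2+ cells held 46.6 CPM at P97 and 25.9 and 20.2 CPM at P45, against 68.3 CPM at P97 and 45.8 and 57.7 CPM at P45 in Calb2- cells. The Calb2 difference was -0.88 ± 0.19 (log2 fold change, SE; adjusted p = 0.00699), and it no longer passed without P45 replicate 2, at -0.65. Nos1+ cells held 47.9 CPM at P97 and 28.5 and 39.7 CPM at P45, against 70.1 CPM at P97 and 47.4 and 54.4 CPM at P45 in Nos1- cells (log2 fold change -0.53 ± 0.15, SE; adjusted p = 0.0322). Leaving out any 1 of the 3 libraries ended the Nos1 call for Bcan, at log2 fold changes between -0.47 and -0.58. Between Hpse groups Bcan was level in the fit, with a log2 fold change of -0.01 ± 0.16 (SE).

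Ncan passed in 1 marker comparison. In Hpse+ cells it had 23.7 CPM at P97 and 47.9 and 29.2 CPM at P45, and in Hpse- cells 61.8 CPM at P97 and 58.1 and 46.2 CPM at P45. Hpse+ values were lower within all 3 tdTomato+ libraries, although the highest Hpse+ value exceeded the lowest Hpse- value, and the log2 fold change was -0.76 ± 0.19 (SE; adjusted p = 0.00274). The GFP+/tdTomato+ library, which was not in this fit, ran the other way, with 40.5 CPM in Hpse+ and 30.5 CPM in Hpse- cells. The log2 fold change was -0.42 without the P97 library, -0.45 with cells thinned to 2000 UMIs and -0.43 with the GFP+/tdTomato+ library as a further block, and passed in none of these. In the other marker comparisons the log2 fold change of Ncan lay between -0.32 (Calb2) and 0.16 (Crh).

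Tnr fell in Myh13+ cells, where it had 27.1 CPM at P97 and 35.4 and 28.4 CPM at P45, against 78.8 CPM at P97 and 73.7 and 69.9 CPM at P45 in Myh13- cells. The groups were well apart, with a log2 fold change of -1.31 ± 0.24 (SE; adjusted p = 0.000382). The call was lost without the P97 library (-1.18) and with cells thinned to 2000 UMIs (-0.65). In Pvalb+ cells Tnr was moderately higher, at 81.6 CPM against 68.0 CPM in Pvalb- cells at P97, 85.9 against 63.7 CPM in P45 replicate 1 and 81.4 against 59.0 CPM in P45 replicate 2 (log2 fold change 0.37 ± 0.11, SE; adjusted p = 0.0102). Without either P45 library that call ended, at 0.35 and 0.33. Hpse+ cells held less Tnr within each library (59.1 against 79.6 CPM in Hpse- cells at P97, for example), but the log2 fold change of -0.42 ± 0.15 (SE) had an adjusted p of 0.0683.

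**Figure D2:**
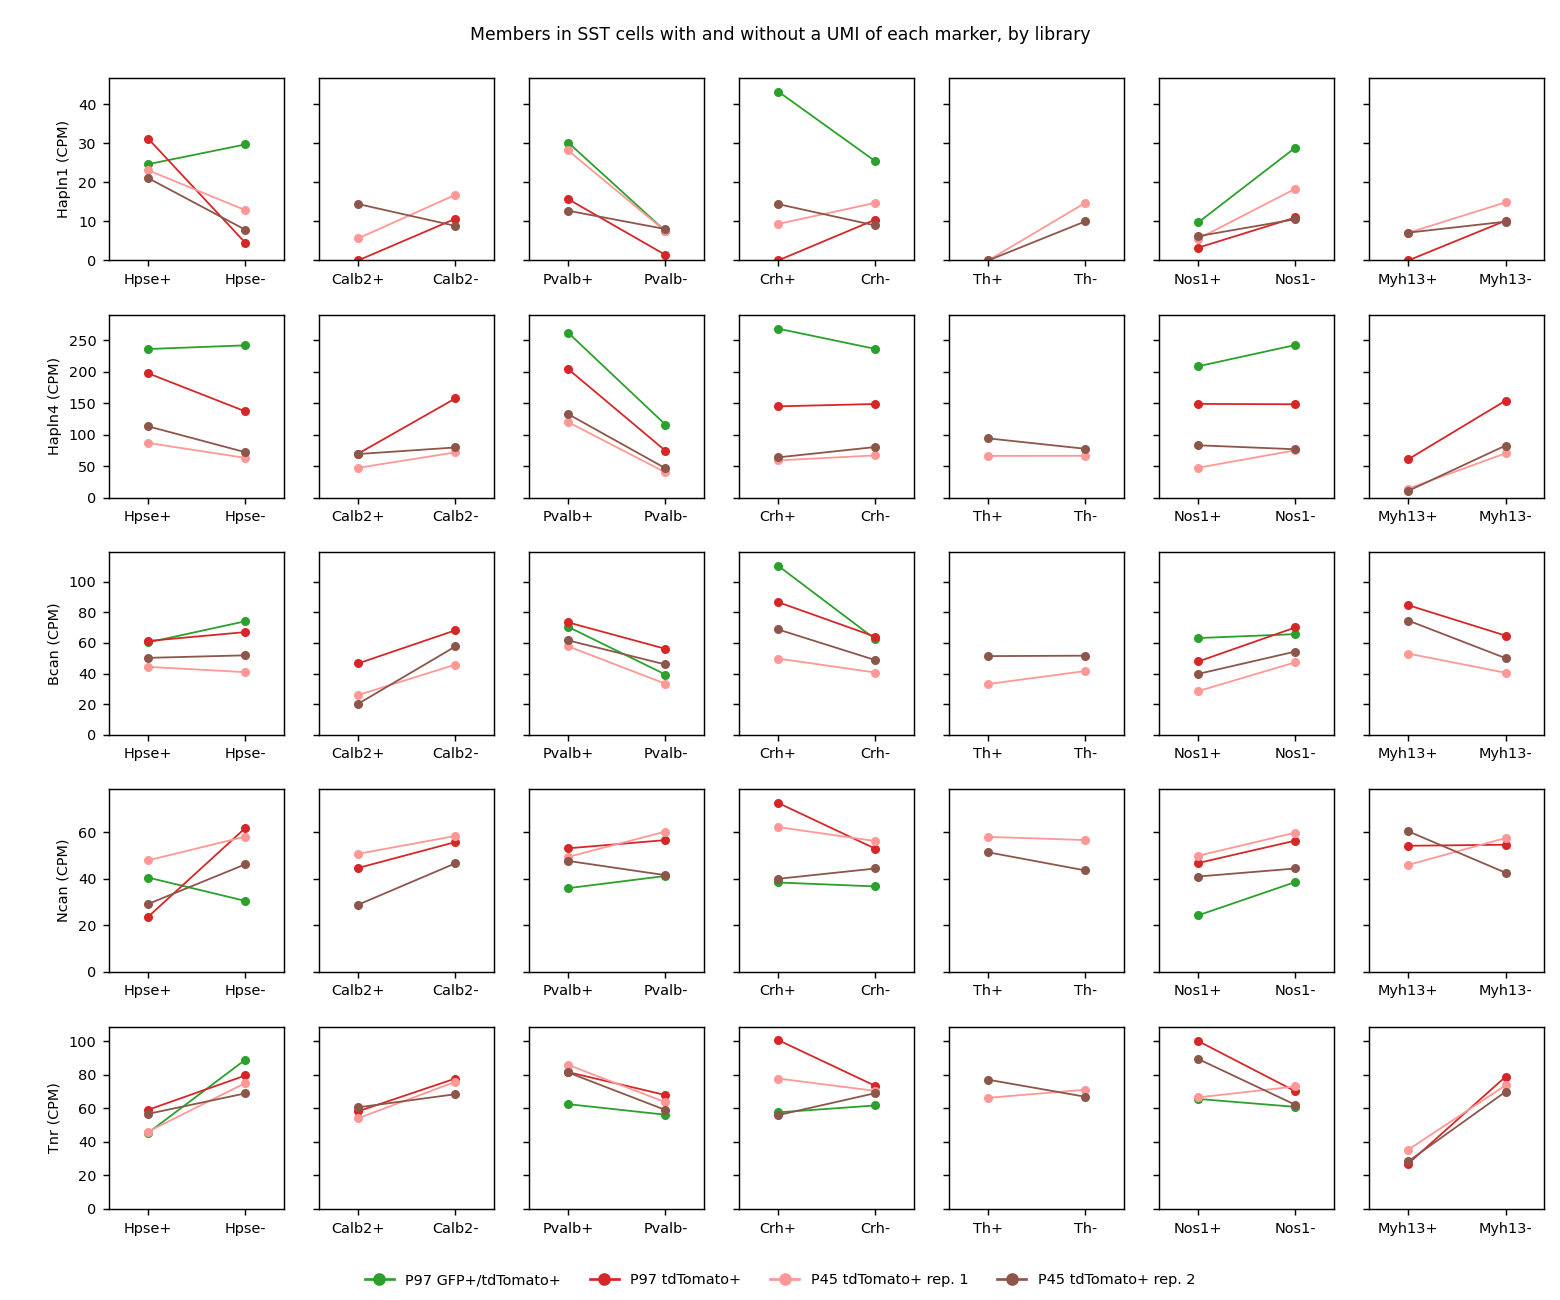
CPM of 5 members in SST cells with at least 1 UMI of a marker (left of each panel) and with none (right), 1 line per library; groups of fewer than 10 cells are not drawn, and a row shares its vertical scale. Hapln4 is higher in Pvalb+ cells in all libraries, and Tnr is lower in Myh13+ cells in all 3 tdTomato+ libraries (27.1 to 35.4 CPM against 69.9 to 78.8 CPM).

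Oligodendrocyte markers were unevenly spread between marker groups. They summed to 50.8, 8036 and 32.0 CPM in Myh13+ cells of the P97, first and second P45 libraries, against 1119, 505 and 1124 CPM in Myh13- cells. In Pvalb+ cells they summed to 1323, 2203 and 1244 CPM, against 701, 467 and 943 CPM in Pvalb- cells. In Hpse+ cells they summed to 30.1, 40.8 and 2210 CPM, against 1294, 1204 and 860 CPM in Hpse- cells. Leaving out cells with transcripts of another cell type kept 563 of 573 tdTomato+ SST cells at P97. At P45 it kept 656 of 668 and 636 of 646. Among the cells kept, the members called for Pvalb (4), Myh13 (2), Calb2 (2) and Nos1 (2) passed. For Hpse, Tnr joined the 3 members called (log2 fold change -0.48). The share of all genes called is not set beside these counts, and the part of glial transcripts in the calls was not tested.

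The comparison of Hpse+ with Calb2+ cells set 2 marker groups of SST cells against each other, with cells positive for both left out. Hapln4 and Bcan were both higher in Hpse+ cells, 2 of 4 members tested, where 8.8% of all genes were called. Hapln4 had 203 CPM in Hpse+ and 66.3 CPM in Calb2+ cells at P97, 93.7 and 47.3 CPM in P45 replicate 1, and 118 and 67.2 CPM in P45 replicate 2, with no overlap. Its log2 fold change was 1.14 ± 0.20 (SE; adjusted p = 0.000292), and among cells positive for exactly 1 marker it was 0.94 and did not pass. Bcan had 62.3 and 47.1 CPM at P97, 52.1 and 28.6 CPM in P45 replicate 1, and 56.2 and 21.3 CPM in P45 replicate 2, again in Hpse+ cells first and Calb2+ cells second. The Bcan difference of 0.82 ± 0.24 (log2 fold change, SE; adjusted p = 0.0321) did not pass without P45 replicate 1 (0.81) or replicate 2 (0.60). Hapln1 did not reach the filter here, with 29 UMIs in Hpse+ cells against 0 in Calb2+ cells at P97, 13 against 5 in P45 replicate 1 and 8 against 5 in P45 replicate 2. Ncan and Tnr had log2 fold changes of -0.40 ± 0.27 and -0.09 ± 0.20 (SE), and neither passed.

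**Figure D3:**
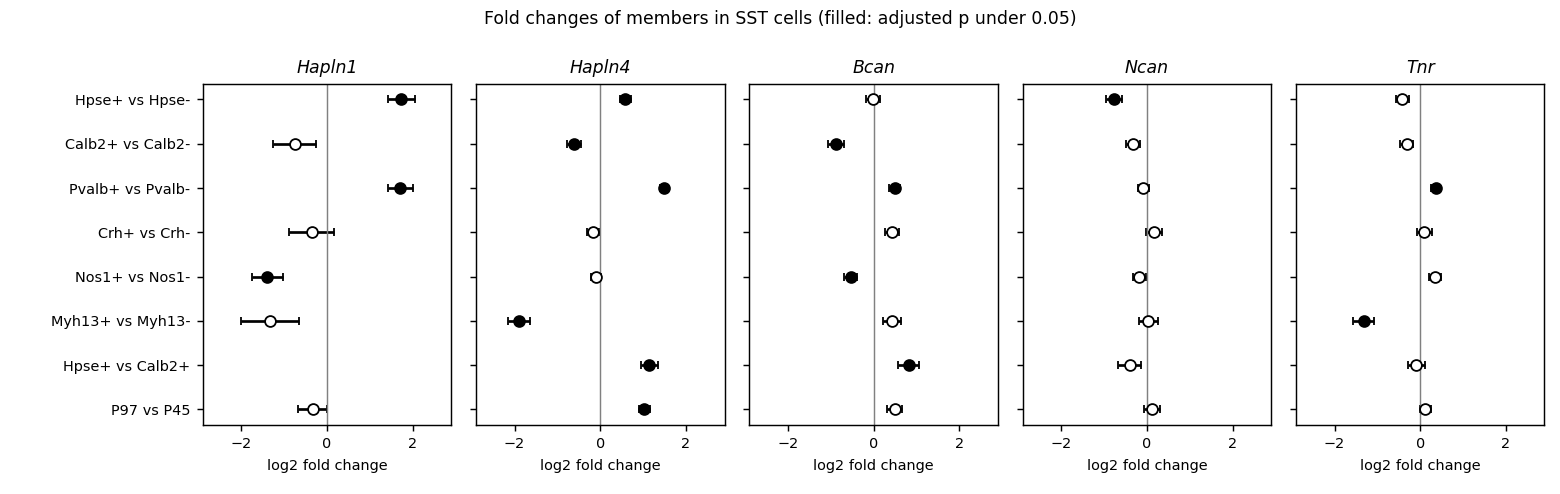
Log2 fold change of each member in each comparison, with bars of 1 SE, from edgeR fits over the 3 tdTomato+ libraries; filled points had an adjusted p under 0.05, the Th comparison is not drawn, and Hapln1 was not tested between Hpse+ and Calb2+ cells. Hapln4 runs from -1.90 in Myh13+ cells to 1.49 in Pvalb+ cells.

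Many SST cells held UMIs of more than 1 marker, 27.4% of those sorted as tdTomato+ at P97 and 26.0% and 24.3% at P45. In the GFP+/tdTomato+ library, which was split by Hpse and by Pvalb elsewhere, the share was 54.5%. Levels in the tdTomato+ libraries were therefore also taken over cells positive for exactly 1 of the 7 markers. On this basis Hapln4 was highest in cells with Pvalb alone, at 175 ± 38.8 CPM (SD, n = 3 libraries), followed by Hpse alone at 91.2 ± 43.7 CPM, and the ranges of these neighbours did not overlap. From Hpse downwards the ranges of neighbours in the order overlapped, through Nos1 (62.5 CPM), Crh (57.7 CPM), cells with none (48.7 CPM) and Calb2 (47.3 CPM) to Myh13 (29.3 CPM). Hapln1 was likewise ordered Pvalb (28.7 ± 24.5 CPM) and Hpse (22.9 ± 18.7 CPM), which overlapped, ahead of the other groups with mean levels of 4.81 CPM or less, although Hpse overlapped with Crh. It had no UMI in the 111 cells with Myh13 alone, which allows up to 15.5 to 18.4 CPM in a library. Tnr was highest with Crh alone (104 ± 33.3 CPM) and lowest with Myh13 alone (23.9 ± 2.25 CPM), below Calb2 alone (36.8 ± 4.51 CPM) without overlap. Bcan ran between 70.9 CPM (Pvalb) and 27.6 CPM (Nos1), and Ncan between 75.1 CPM (Crh) and 22.8 CPM (Hpse), with overlap between all neighbours. The 15 cells with Th alone in 1 library had 91.5 CPM of Ncan and 78.4 CPM of Hapln4, on 7 and 6 UMIs.

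**Figure D4:**
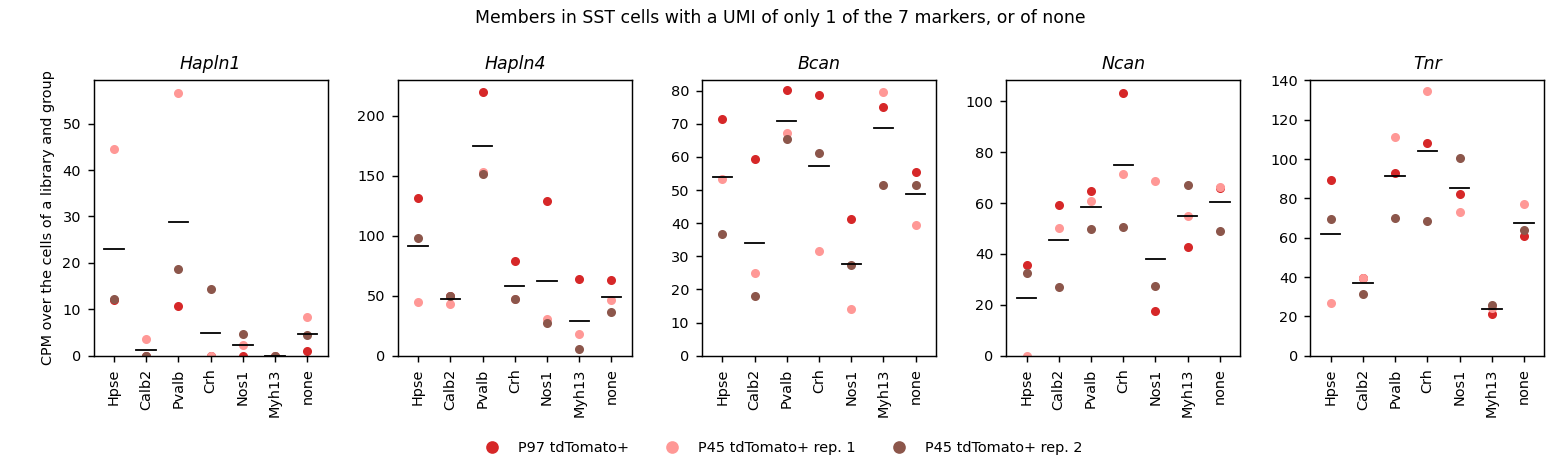
CPM of 5 members in tdTomato+ SST cells with UMIs of only the named marker, or of none of the 7 markers; points are libraries and bars their mean (n = 3). Hapln4 with Pvalb alone (175 CPM on average) lies above all other groups in all 3 libraries.

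Between ages, Hapln4 was the only member of 6 tested that passed, in a comparison that called 1.78% of all genes. It was higher at P97, with 149 CPM against 66.5 and 78.1 CPM at P45 (log2 fold change 1.03 ± 0.13, SE; adjusted p = 0.00489). The P97 library was 2.24-fold higher than P45 replicate 1 and 1.90-fold higher than P45 replicate 2, ratios given without a test. By the rule of at least 1 UMI, 259 of 573 SST cells were Pvalb+ at P97 against 169 of 668 and 198 of 646 at P45. Cells were deeper at P97 (median 7583 against 5158 and 6156 UMIs). In Pvalb+ cells Hapln4 had 205 CPM at P97 against 120 and 133 CPM at P45, and in Pvalb- cells 74.6 against 40.1 and 46.7 CPM. The part of Pvalb+ cells in the age difference was not tested. Acan, at 3.25 CPM at P97 against 0.753 and 0.927 CPM at P45, had a log2 fold change of 1.90 ± 0.79 (SE) with an adjusted p of 0.328. Bcan (0.49 ± 0.17), Ncan (0.11 ± 0.19), Hapln1 (-0.34 ± 0.33) and Tnr (0.12 ± 0.14) did not pass either. With 1 library at P97, age and the batch of mice cannot be told apart.

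GFP+/tdTomato+ and tdTomato+ cells at P97 were compared as ratios of CPM with exact 95% intervals for counting error, with 1 library per sort and no test made. Hapln1 was 2.77-fold (1.92 to 4.05), Acan 2.62-fold (1.37 to 5.19) and Hapln4 1.61-fold (1.45 to 1.78) as abundant in GFP+/tdTomato+ cells. Ncan stood at 0.674-fold (0.540 to 0.839) and Tnr at 0.812-fold (0.681 to 0.966), whereas the interval of Bcan (0.992-fold, 0.831 to 1.18) included equality. The ratio of Vcan, 1.12 (0.165 to 6.65), rests on 3 and 4 UMIs. By the rule of at least 1 UMI, 120 of 211 GFP+/tdTomato+ cells were Hpse+ against 79 of 573 tdTomato+ cells, and 155 against 259 were Pvalb+. GFP+/tdTomato+ cells were deeper (median 15222 against 7583 UMIs), so these shares mix composition with depth of detection. The splits by Hpse and Pvalb below use the same rule.

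Split by Hpse, the ratios of the link proteins and Acan went apart. Among Hpse+ cells Hapln1 was at 24.6 CPM in GFP+/tdTomato+ and 31.2 CPM in tdTomato+ cells (ratio 0.789, 0.491 to 1.29), and Acan at 7.24 and 9.68 CPM (0.748, 0.307 to 1.94). Among Hpse- cells Hapln1 was at 29.7 CPM in GFP+/tdTomato+ and 4.51 CPM in tdTomato+ cells (6.58, 3.64 to 12.3), and Acan at 10.7 and 1.75 CPM (6.11, 2.27 to 18.1). Of the 87 Hapln1 UMIs of the GFP+/tdTomato+ sort, 51 lay in its Hpse+ cells. Split by Pvalb instead, the ratio of Hapln1 was 1.92 (1.32 to 2.84) in Pvalb+ cells and 5.29 (0.896 to 36.1) in Pvalb- cells, the second on 4 and 3 UMIs. Hapln4 was higher in GFP+/tdTomato+ cells on either side, at 1.20-fold (1.01 to 1.42) in Hpse+ and 1.77-fold (1.53 to 2.04) in Hpse- cells. Ncan was at 1.71-fold (1.06 to 2.88) in Hpse+ and 0.493-fold (0.339 to 0.699) in Hpse- cells.

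**Figure D5:**
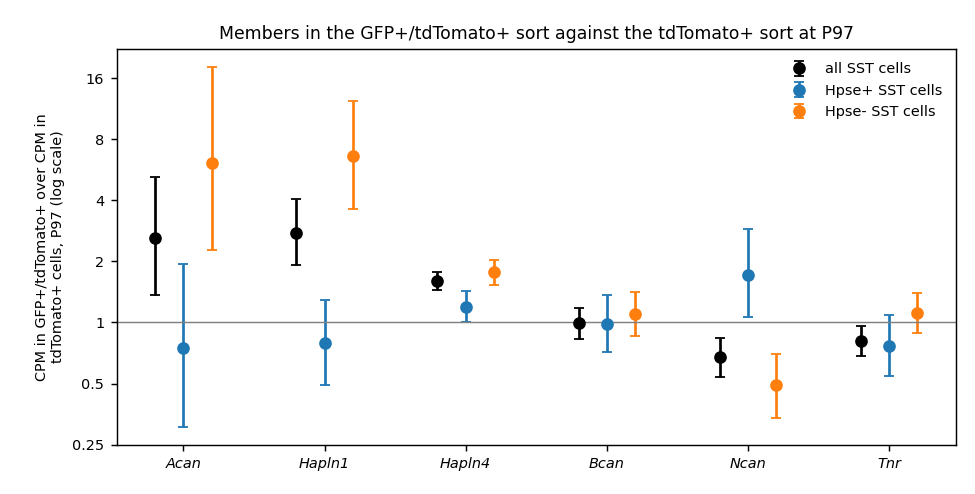
Ratio of CPM in GFP+/tdTomato+ over tdTomato+ SST cells at P97 (log scale) for 6 members, over all SST cells and split by Hpse, with exact 95% intervals for counting error; 1 library per sort. In Hpse- cells Hapln1 and Acan are 6.58-fold and 6.11-fold as abundant in the GFP+/tdTomato+ sort, and in Hpse+ cells their intervals include 1.

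Barcodes with under 3 Sst UMIs and at least 3 Slc17a7 UMIs, a marker of excitatory neurons, gave a level from another cell type in the same libraries. These barcodes numbered 3 in the GFP+/tdTomato+ library, 15 in the tdTomato+ sort at P97 and 66 and 23 at P45. Hapln1 and Acan had no UMI in any of them, which allows up to 6.15 CPM in the deepest group (66 barcodes) and 65.0 CPM in the shallowest (3 barcodes). In the 3 tdTomato+ libraries Ncan stood at between 100.5 and 125 CPM and Hapln4 at between 109 and 123 CPM. The 3 barcodes of the GFP+/tdTomato+ library held 152 CPM of Ncan and 281 CPM of Hapln4, on 7 and 13 UMIs. Ncan was therefore higher in these barcodes than in SST cells of all 4 libraries, a difference given without a test. Tnr was at 76.1 to 109 CPM in those of the tdTomato+ libraries. Barcodes with under 3 Sst UMIs and markers of glia or vessels, 14, 6 and 7 in the tdTomato+ libraries, held Tnr at 335, 97.3 and 461 CPM and Bcan at 318, 111 and 434 CPM, on 7 to 19 UMIs each, and the P45 values rest on 6 and 7 barcodes.

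Other genes of the net were taken from 4 lists: 24 genes of chondroitin sulfate and hyaluronan synthesis, 14 other matrix and link proteins, 21 matrix proteases and inhibitors, and 18 receptors and ligands. In Hpse+ cells, of 16 synthesis genes tested 1 was higher and 1 lower, of 6 matrix proteins 2 and 3, of 13 proteases and inhibitors 1 and 2, and of 13 receptors and ligands 2 and 6, beside 11.6% of all genes called. The largest changes there were in Csgalnact1, which starts chondroitin chains (log2 fold change -3.81, on 1 UMI in Hpse+ cells), Ust, a uronyl 2-sulfotransferase (2.13), Nptx1, a neuronal pentraxin (-2.03), Sema3a, a guidance cue that binds nets (-1.21), and Adamts5, a lectican-cleaving protease (1.17, adjusted p = 0.0342). In Pvalb+ cells 1 synthesis gene was higher and 3 lower, 3 and 2 matrix proteins, 3 and 2 proteases and inhibitors, and 3 and 4 receptors and ligands, of 48 genes tested and beside 14.8% of all genes called. Csgalnact1 (-1.80), the lectican-cleaving protease Adamts4 (1.48), the xylosyltransferase Xylt1 (-1.25), the hyaluronan-degrading Cemip (1.04) and Adamts17 (0.94) led there. The medians of the 4 lists lay between -0.39 and -0.03 for Hpse and between -0.07 and 0.10 for Pvalb on the log2 scale, beside medians of -0.00 and -0.01 over all genes.

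Calb2+ cells had 5 of 46 of these genes tested higher and 3 lower, where 5.33% of all genes were called. The largest changes were in Adamts5 (2.59), Rtn4rl1, a receptor of the Nogo family (-2.49), the receptor phosphatase Ptprd (1.33), the sulfotransferase Chst15 (1.23) and the protease inhibitor Timp3 (0.90). Crh+ cells had 4 of 47 higher and 7 lower (5.11% of all genes called), led by Adamts5 (-3.44, on 1 UMI in Crh+ cells), the link protein Hapln3 (2.79, on 10 UMIs in Crh+ and 11 in Crh- cells), Chst15 (-1.87), Ptprd (-1.55) and Timp3 (1.35). Myh13+ cells, low in Hapln4 and Tnr, had 6 of 48 higher and 5 lower (5.74% of all genes called). Cd44, a hyaluronan receptor, was higher (4.01, on 22 UMIs in Myh13+ and 20 in Myh13- cells), as was the pentraxin Nptx2 (2.36), and Timp3 (-2.79), Nptx1 (-2.31) and Chst15 (-1.96) were lower. Nos1+ cells had 6 of 47 higher and 2 lower (5.05% of all genes called), with the glycoprotein Reln (-1.05), Rtn4rl1 (-0.95), Nptx1 (0.84), Sema3a (0.83) and Ptprd (0.82) changing most.

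In Th+ cells of the P45 libraries, where 3.43% of all genes were called, 1 of 48 of these genes was higher, Lgi2 (1.79), and 4 were lower: Ptprd, with 1 UMI, Reln (-3.20), Lgi1 (-2.68) and Timp3, which had no UMI in Th+ cells against 107 CPM in Th- cells. The median over all genes in that fit was -0.12. Between Hpse+ and Calb2+ cells 3 of 30 were higher and 6 lower (8.8% of all genes called), led by Nptx1 (-2.08), Sema3a (-1.52), Ust (1.42), Timp3 (-1.31) and Reln (1.03). Between ages 2 of 55 were higher and 1 lower at P97 (1.78% of all genes called). Lgi1, a secreted neuronal glycoprotein, had 235 CPM at P97 and 104 CPM at P45 (1.15), Chst15 97.9 and 53.7 CPM (0.85), and Timp3 61.1 and 104 CPM (-0.78).

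Likeness of pattern was measured as Pearson's r of log2(CPM + 1) over 22 combinations of exclusive marker group and tdTomato+ library, which share libraries and differ in depth, among 7289 genes. Hapln4 went closely with Cplx1 (0.81) and Adam23 (0.79). The nearest genes to Tnr were Ntng1 (0.79), Kcnh7 (0.76) and Ptprt (0.76). Bcan went most closely with Adcy1 (0.78), Gm27032 (0.77) and Ina (0.76), and Ncan with Ccdc25 (0.91), Cep290 (0.91) and Snx4 (0.89). Ncan had 0 CPM in a library of cells with Hpse alone, and at least 17.6 CPM in every other exclusive group. The weight of that point in the values for Ncan was not tested. Among these 4 members themselves, the values lay between -0.01 (Bcan and Tnr) and 0.49 (Hapln4 and Tnr).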

How the data were processed

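Single-cell 3′ libraries were aligned and counted by the authors with Cell Ranger 2.0.0 on GRCm38, per the submitters' processing notes, and the deposited values are raw UMI counts per gene and barcode. Their gene annotation was not given in the sources used here. SST cells had at least 2000 UMIs and 3 Sst UMIs. A cell was positive for a marker with 1 UMI or more, and groups of fewer than 10 cells in a library were left out of the marker comparisons (levels in other cell types are given for every library). UMIs were summed per library and group and tested with edgeR 4.0.16 (quasi-likelihood, TMM, filterByExpr, library as block, both groups in a library sharing their animals) in R 4.3.3, with Benjamini-Hochberg adjustment over all genes and a threshold of 0.05. Intervals are exact at 95% and cover counting error only, as do the limits of 3 counts behind a value of 0. DESeq2 1.42.0 was an alternative. The test was also run on counts simulated for the Hpse, Myh13 and age comparisons, with an outcome not given here. Apart from the changes put in, simulated means differed between libraries by depth alone, so that run does not check the spread between libraries. Doublets called by Scrublet (scanpy 1.11.5) were kept, and leaving them out was an alternative. They numbered 16 of 211 SST cells in the GFP+/tdTomato+ library, 0 in the P97 tdTomato+ library and 2 and 0 at P45.

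Members, markers and gene lists were chosen with earlier results of these data known. All members were named, and of the related genes the called ones with the largest log2 fold change, at most 5 per comparison. For likeness, the 3 closest genes of at least 20 CPM were named, of which 1 is not reported here. Interaction fits, the removal of doublets, the ratios within Hpse- and Pvalb groups and the age ratios per P45 library were added after the data had been seen.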

Additional observations from a re-analysis of the deposited data

Results flagged for a closer look

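The difference of Hapln1 between Hpse groups ran the other way in the 1 GFP+/tdTomato+ library. Hapln1 was at 24.6 CPM in Hpse+ and 29.7 CPM in Hpse- cells of the GFP+/tdTomato+ library, whereas it was higher in Hpse+ cells of all 3 tdTomato+ libraries. The interaction in edgeR was -2.00 ± 0.51 (log2, SE; adjusted p = 0.0293), with 2 residual degrees of freedom. That fit was run after the opposite sign had been seen, it holds 1 GFP+/tdTomato+ library, and 2 of the 3 libraries set against it also differ in age, so it does not show a difference between the sorts. Of the 87 Hapln1 UMIs in the GFP+/tdTomato+ library, 83 were in Pvalb+ cells, which held 2751886 of the 3285642 UMIs of its SST cells. The part of Pvalb+ cells in the opposite sign was not tested.

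Ncan was higher in Hpse+ than in Hpse- cells of the GFP+/tdTomato+ library, by 0.41 on the log2 scale (40.5 and 30.5 CPM), and lower in all 3 tdTomato+ libraries; the interaction of 1.17 ± 0.37 (log2, SE) had an adjusted p of 0.160. Hapln4 stood at -0.035 (log2) between Hpse+ and Hpse- cells of the GFP+/tdTomato+ library, where the tdTomato+ libraries were all positive, and the interaction of -0.62 ± 0.18 had an adjusted p of 0.0912. Between Crh+ and Crh- cells Hapln4 was at 0.18 (log2) in the GFP+/tdTomato+ library and negative in all 3 tdTomato+ libraries, with an interaction of 0.31 ± 0.26 (adjusted p = 0.882). Tnr was at 0.055 (log2) between Hpse+ and Calb2+ cells at P97 and negative in both P45 libraries, a difference that was not tested.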

How the results depend on the processing

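Leaving aside the removal of libraries, there were 484 member log2 fold changes under alternatives. Of these, 432 kept their side of the threshold, 44 no longer passed, 7 newly passed and 1 reversed. The reversed value was Hapln4 between Calb2+ and Calb2- cells, 0.12 with cells thinned to 2000 UMIs. Direction was compared only where the main or the alternative value passed. Thinned, the number of members called was 0 for Hpse, 0 for Calb2, 2 for Pvalb, 0 for Nos1 and 0 for Myh13, with fewer UMIs per group, and no value was had for Th or for Hpse+ against Calb2+. With exclusive groups in one fit it was 1 for Hpse, 0 for Calb2, 1 for Crh (Tnr, 0.87), 0 for Nos1 and 0 for Hpse+ against Calb2+. Each library supplies both groups from the same mice, so library was the block; with no library block the count was 1 for Hpse, 0 for Calb2, 1 for Pvalb, 0 for Nos1, 1 for Myh13 and 1 for Hpse+ against Calb2+. DESeq2 called 0 for Calb2, 2 for Pvalb, 0 for Nos1 and 1 for Hpse+ against Calb2+. With the GFP+/tdTomato+ library as a further block, 1 was called for Hpse and 1 for Nos1. With 5000 UMIs per cell the count was 1 for Nos1 and 1 for Hpse+ against Calb2+, with 10 Sst UMIs it was 1 for Nos1, and with 3 marker UMIs it was 1 for Myh13. Thinned groups held fewer UMIs. The share of all genes called under each alternative is not set beside these counts, so they do not show a loss particular to the members. The cause of the changes was not tested.

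Leaving out each tdTomato+ library in turn gave 1 to 3 members called for Hpse, 1 to 2 for Calb2, 3 to 4 for Pvalb, 0 for Crh and Th, 0 to 1 for Nos1, 1 to 2 for Myh13 and 1 to 2 for Hpse+ against Calb2+. Hapln1 passed between Calb2+ and Calb2- cells without P45 replicate 2 (-2.01), and Tnr between Nos1+ and Nos1- cells without P45 replicate 1 (0.56). The share of all genes called is not set beside these counts either.

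Among Hpse+ cells the ratio of GFP+/tdTomato+ over tdTomato+ cells lay on the other side of 1 for Acan (0.748), Ncan (1.71) and Hapln1 (0.789). The intervals of Acan (0.307 to 1.94) and Hapln1 (0.491 to 1.29) included 1, and that of Ncan (1.06 to 2.88) did not. For Hapln4 the ratio was 1.20. Among Hpse- cells it was 6.11 for Acan, 0.493 for Ncan and 6.58 for Hapln1, and reversed for Tnr (1.12). Among Pvalb+ cells it was 1.92 for Hapln1 and 1.28 for Hapln4, and among Pvalb- cells 5.29 for Hapln1 and 0.701 for Bcan. Thinned, it was 0.776 for Bcan and 1.88 (1.43 to 2.46) for Hapln4. Thinned intervals included 1 for Hapln1 (0.888 to 8.30), Acan (0.364 to 20.3), Ncan (0.449 to 1.34), Tnr (0.428 to 1.13) and Bcan (0.460 to 1.26). Acan and Vcan are limited by depth, with at most 28 and 9 UMIs in a library.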
